A study of Mus musculus with 19 samples.

Results

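The 31 genes (members) described here are the enzymes of cholesterol synthesis and the genes that regulate, store and move sterols in the cell. They were chosen by name, with earlier results of these data known. All 31 were found as 1 row each among the 60567 genes listed for the series. They comprised 18 enzymes of the synthesis pathway, 7 regulators (Insig1, Insig2, Srebf1, Srebf2, Scap, Nr1h2 and Nr1h3) and 6 genes of transport, storage and removal (Stard4, Soat1, Npc1, Npc2, Cyp46a1 and Osbp). mRNA was sequenced from cells sorted by flow cytometry from the hippocampus of 9-month-old male mice on a C57bl6 background. An adeno-associated vector injected in CA1 at 3 to 4 months carried GFP, alone or with the inhibitor SOCS3, under the gfaABC1D promoter, a short GFAP-derived promoter active in astrocytes. The 4 groups were GFP+ astrocytes of wild-type littermates given GFP (WT-GFP, n = 7), GFP+ astrocytes of APP/PS1dE9 mice given GFP (APP-GFP, n = 4), GFP+ astrocytes of APP/PS1dE9 mice given SOCS3 and GFP (APP-SOCS3, n = 5), and GFP- cells of WT-GFP mice (n = 3). APP/PS1dE9 mice are a transgenic model of Alzheimer's disease, and their transgenes include a chimeric mouse and human App with the Swedish mutations. The labels give the GFP- fraction as microglia, neurons and oligodendrocyte precursors together with astrocytes that took up no vector. Both hippocampi of a mouse were sorted separately and the labels do not say which samples share a mouse, so the p-values measure the spread between samples.

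Cholesterol does not cross the blood-brain barrier and is made in the brain itself, in adult brain largely by astrocytes, which pass it to neurons on apolipoprotein E. The mevalonate part of the pathway runs from Hmgcs1 to squalene, which Sqle and Lss turn into the first sterol, and the later enzymes trim that sterol to cholesterol. The transcription factor SREBP2, from Srebf2, switches these enzymes on when sterol is low, carried by the Scap protein, and the Insig proteins hold Scap back when sterol is high. SREBP1, from Srebf1, acts more on fatty acid genes, and the liver X receptors Nr1h2 and Nr1h3 answer to oxysterols.

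Promoter sequences of 5 enzymes are shown as a description, and their part in the differences between the cell fractions was not tested. SREBP2 binds promoters next to the factor NF-Y, which binds CCAAT. The sequences are the 250 bases before the RefSeq start (GRCm38.p6), 5′ to 3′ on the gene's strand. Capitals mark the sterol regulatory element TCACNCCAC and the box CCAAT on either strand (ATTGG on the other). Hmgcs1, the HMG-CoA synthase (chr13:119690101-119690350, plus strand), was the only member with a match to TCACNCCAC, beginning 137 bases before the start. Msmo1, a sterol C4 demethylase (chr8:64733579-64733828, minus strand), Mvd, the mevalonate diphosphate decarboxylase (chr8:122443423-122443672, minus strand), and Tm7sf2, a sterol C14 reductase (chr19:6067851-6068100, minus strand), were among the enzymes with the largest differences between astrocytes and GFP- cells. Ebp, a sterol isomerase (chrX:8193513-8193762, minus strand), is shown as an enzyme that did not pass the test there.
Hmgcs1: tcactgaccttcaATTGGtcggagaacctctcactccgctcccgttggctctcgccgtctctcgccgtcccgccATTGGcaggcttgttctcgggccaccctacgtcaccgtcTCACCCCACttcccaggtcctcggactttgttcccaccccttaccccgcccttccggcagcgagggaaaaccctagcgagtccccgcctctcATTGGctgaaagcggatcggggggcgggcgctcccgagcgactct
Msmo1: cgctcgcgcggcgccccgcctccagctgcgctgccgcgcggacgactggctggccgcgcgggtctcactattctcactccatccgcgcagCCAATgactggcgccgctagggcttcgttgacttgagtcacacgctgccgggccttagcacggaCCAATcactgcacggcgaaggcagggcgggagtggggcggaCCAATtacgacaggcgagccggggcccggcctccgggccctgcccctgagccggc
Mvd: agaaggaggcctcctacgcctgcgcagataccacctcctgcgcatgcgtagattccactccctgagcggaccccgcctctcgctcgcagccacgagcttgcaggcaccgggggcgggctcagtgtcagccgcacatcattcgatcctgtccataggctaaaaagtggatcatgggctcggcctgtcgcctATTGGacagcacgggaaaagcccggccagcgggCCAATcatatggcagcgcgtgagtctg
Tm7sf2: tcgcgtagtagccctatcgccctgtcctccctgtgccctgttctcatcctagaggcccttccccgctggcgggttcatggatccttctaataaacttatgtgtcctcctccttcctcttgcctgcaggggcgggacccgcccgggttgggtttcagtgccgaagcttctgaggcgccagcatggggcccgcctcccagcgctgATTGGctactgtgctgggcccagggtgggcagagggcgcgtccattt
Ebp: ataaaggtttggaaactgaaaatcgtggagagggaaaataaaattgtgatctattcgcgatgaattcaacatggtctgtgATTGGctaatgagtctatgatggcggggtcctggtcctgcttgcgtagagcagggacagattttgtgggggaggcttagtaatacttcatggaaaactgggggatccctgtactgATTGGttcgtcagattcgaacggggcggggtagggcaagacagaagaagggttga
Of the 31 members, 26 had a promoter entry (not Fdps, Fdft1, Sqle, Npc1 and Stard4). A gene with more than 1 RefSeq start was counted if the window of any start held the motif. CCAAT stood in 22 of the 26, against 37.5% of the 27025 genes with an entry, and in 14 of 15 synthesis enzymes. GGGCGG, the GC box bound by Sp1, was also found in 22 of the 26 members, against 35.4% of all genes. The sterol element matched 1 of 26 members and 1.22% of all genes. Ebp and Lss, which did not pass the test between the cell fractions, also held CCAAT, and Acat2, which did pass, did not. These matches describe letters in a window and were given no test.

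Libraries held 19331876 to 32621917 reads on genes. WT-GFP libraries detected 15575 to 25514 genes, APP-GFP 16471 to 25273, APP-SOCS3 22050 to 26757 and GFP- cells 30807 to 31897. 2 WT-GFP libraries and 1 APP-GFP library detected under 19000. Socs3, the label check, had levels that were 13296, 14488, 15732, 16050 and 37750 in APP-SOCS3 astrocytes and levels that were 438, 1090, 1148 and 1639 in APP-GFP astrocytes. The summed level of 10 astrocyte markers was 519396 to 860582 in the WT-GFP astrocytes, against 19824 to 67577 in GFP- cells. Of the other marker lists, 10 endothelial genes summed to 125567 to 202949, 6 mural genes to 116315 to 152759, 10 microglial genes to 109202 to 183967 and 8 neuronal genes to 2500 to 4211 in the GFP- cells. For the 5 oligodendrocyte precursor markers, the GFP- sums were 28384 to 42772. The 8 oligodendrocyte markers ran the other way, with GFP- sums of 2591 to 3360 below every WT-GFP sum (4961 to 7349). By gene, astrocytes were higher on the log2 scale for 3 of these 8 and lower for 5. Their sum was highest, at 19306, in APP-GFP sample 2. The part of oligodendrocyte RNA in the sterol gene differences was not tested. Levels are reads divided by the library's size factor, so they compare samples and not genes, and fewer cells of a type and less RNA per cell cannot be told apart in these bulk samples.

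Astrocytes of WT-GFP mice were first compared with the GFP- cells of the same group, to show which sterol genes differed between the 2 fractions. mRNA levels of 23 of the 31 members were higher in astrocytes and those of 2 were lower, where a gene passed the test with a limma p up to 0.05 and a fold of 1.5 or more. Among all 26709 genes tested, 9.25% were higher and 33.5% lower by the same rule, so 21.6% of the called genes were higher, a share of 36.3% with equal upper quartiles and 38.7% with edgeR. The smallest exact permutation p (2-sided, on log2 levels) that 7 against 3 samples can give is 0.0167. The median log2 difference of the members was 1.30, against -1.31 for all genes tested. All 31 passed the filter of a mean level of 10 in either group. At an adjusted p under 0.05, 18 members were higher, against 7.38% of all genes, and none was lower. The levels of 17 members were higher in every astrocyte sample than in every GFP- sample, against 7.57% of all genes, and those of 1 member were lower, against 27.2%.

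**Figure D1:**
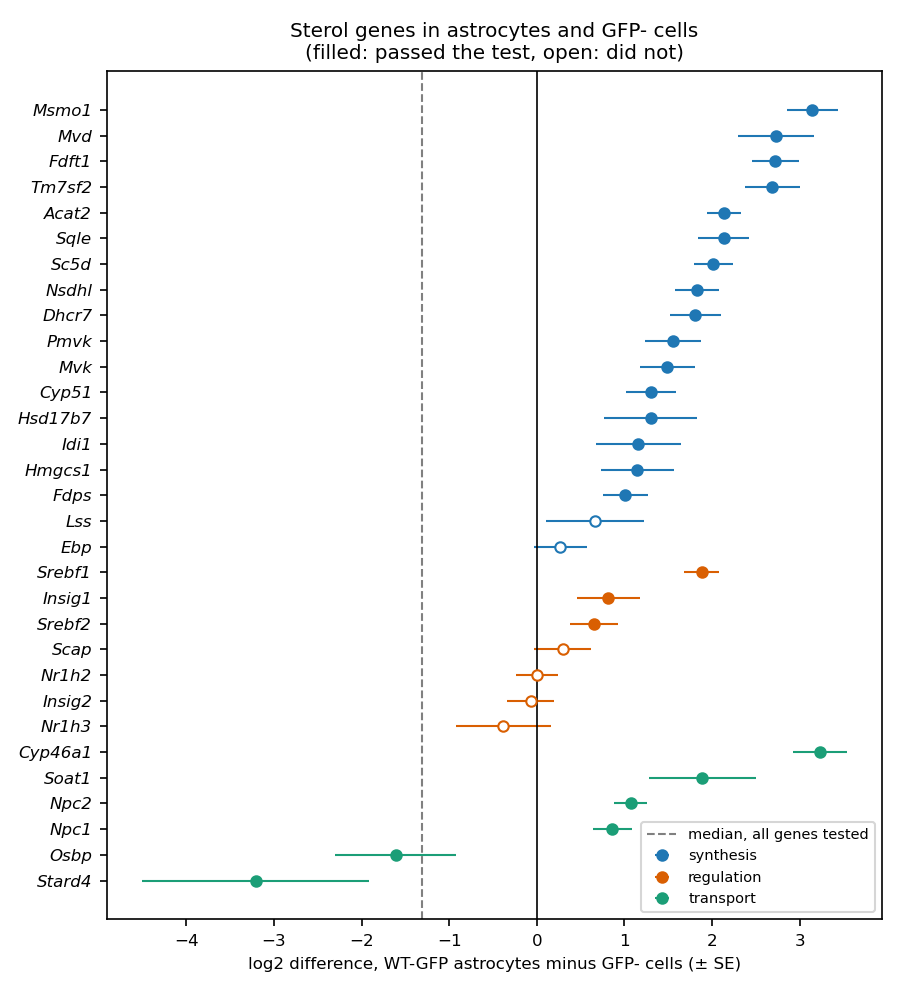
Log2 difference between WT-GFP astrocytes (n = 7) and GFP- cells (n = 3) for each of the 31 genes, as points with their SE. Filled points passed the test and open points did not, colours mark the role, and the dashed line is the median of all 26709 genes tested (-1.31). Of the 18 enzymes, 16 were higher, and Stard4 and Osbp were lower.

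Synthesis enzymes were higher in astrocytes as a group. Of 18, 16 passed the test in this direction, against 9.25% of all genes tested, and none in the other, against 33.5%. Their median log2 difference was 1.68. The summed level of the 18 enzymes was 12882 to 23402 in GFP- cells and 52343 to 92663 in astrocytes. Msmo1 levels ran from 10933 to 22104 with a median of 13769 in astrocytes and were 1093, 1587 and 2636 in GFP- cells. Every astrocyte sample lay above every GFP- sample, and the means differed 8.57-fold (log2 difference 3.15 ± 0.29 (SE), limma p = 3.28e-07, adjusted p = 1.51e-05, exact permutation p = 0.0167). Fdft1, the squalene synthase that commits the pathway to sterols, ran from 5890 to 10259 with a median of 8808 in astrocytes, and its GFP- levels were 819, 1183 and 1850. Its groups were again apart, with a log2 difference of 2.72 ± 0.27 (SE) (limma p = 7.35e-07, adjusted p = 2.55e-05, exact permutation p = 0.0167). Tm7sf2 ran from 560.3 to 931 with a median of 744 in astrocytes, and its levels were 86.2, 91.9 and 183 in GFP- cells. The difference was 2.69 ± 0.31 (SE) on the log2 scale (limma p = 3.46e-06, adjusted p = 7.91e-05, exact permutation p = 0.0167).

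Acat2, the cytosolic thiolase that starts the pathway, ran from 2140 to 3111 with a median of 2701 in astrocytes, and its GFP- levels were 498, 600.4 and 761. It varied least among the enzymes between WT-GFP samples, with a coefficient of variation of 12.9%, and differed by 2.14 ± 0.19 (SE) on the log2 scale (limma p = 2.79e-07, adjusted p = 1.38e-05, exact permutation p = 0.0167). Sqle, the squalene epoxidase and a rate-limiting step after squalene, ran from 8346 to 17113 with a median of 12286 in astrocytes. In GFP- cells Sqle levels were 1739, 2851 and 4232, so that the highest was below the lowest astrocyte sample. The means differed 4.24-fold (limma p = 1.38e-05, adjusted p = 2.33e-04, exact permutation p = 0.0167). Sc5d, a late desaturase, ran from 1675 to 2795 with a median of 2392 in astrocytes, and its GFP- levels were 478, 562 and 635. Its log2 difference was 2.01 ± 0.22 (SE) (limma p = 2.04e-06, adjusted p = 5.32e-05, exact permutation p = 0.0167).

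The other enzymes that passed had smaller differences, with the exception of Mvd (2.73 ± 0.43 (SE)). Nsdhl and Dhcr7, late enzymes, differed by 1.83 and 1.81 on the log2 scale, and Pmvk and Mvk, the mevalonate kinases, by 1.55 and 1.49. Cyp51, the sterol C14 demethylase, differed by 1.30 and Fdps, the farnesyl diphosphate synthase, by 1.01. The Fdps groups overlapped, with the lowest astrocyte sample at 1553 and the highest GFP- sample at 1557. Hmgcs1 (1.15), Idi1 (1.16) and Hsd17b7 (1.30) passed at the unadjusted threshold, and their groups overlapped. The remaining enzymes did not pass. Lss, the lanosterol synthase, was at 822 ± 513 (SD, n = 7) in astrocytes and 448 ± 155 (SD, n = 3) in GFP- cells, with a 95% interval of the log2 difference from -0.57 to 1.90. Ebp was at 794 ± 254 (SD, n = 7) and 631 ± 31.2 (SD, n = 3), with an interval from -0.40 to 0.93. The differences among enzymes were thus between 0.27 and 3.15.

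**Figure D2:**
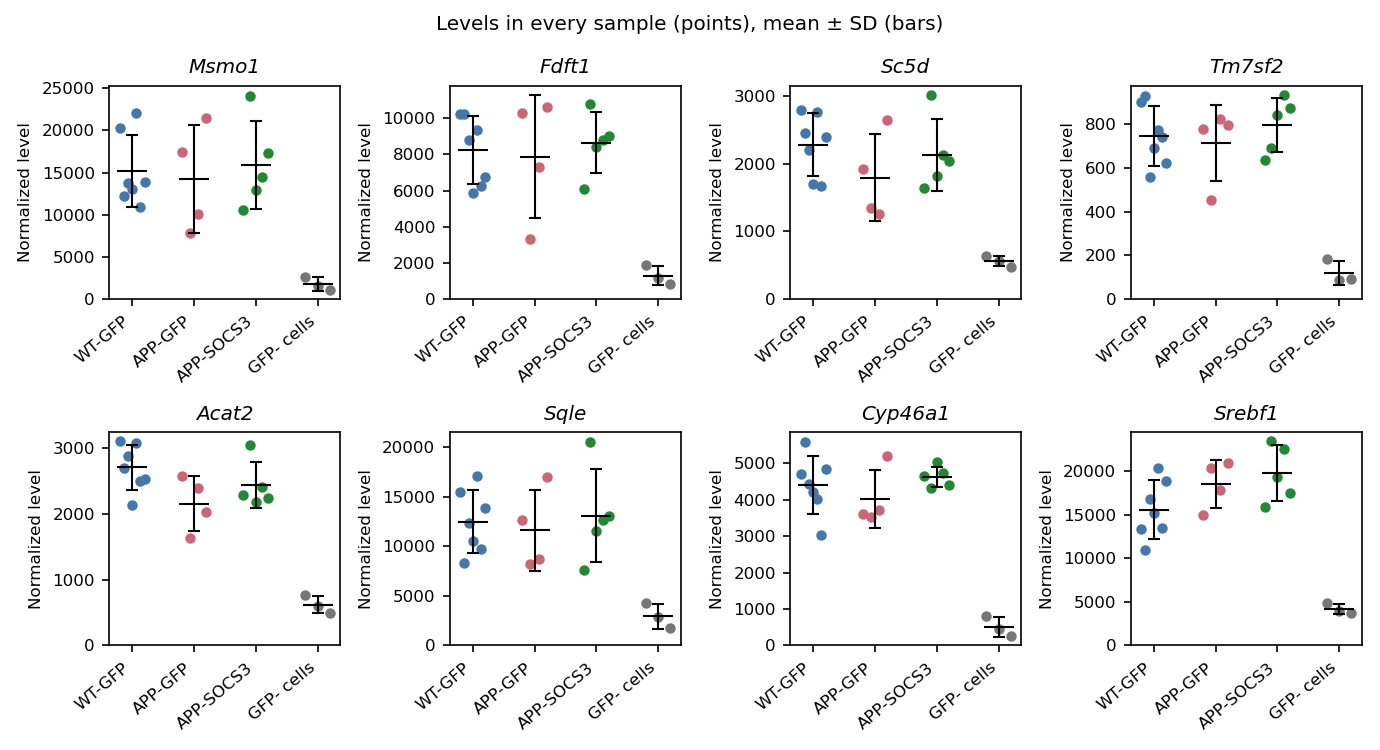
Normalized levels (reads divided by the size factor) of the 8 genes with the smallest p between astrocytes and GFP- cells, in each of the 4 groups. Points are samples and bars are the mean and SD. In all 8 panels every astrocyte sample of the 3 GFP+ groups lies above the GFP- samples.

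Among the regulators, 3 of 7 were higher in astrocytes, against 9.25% of all genes tested, and none was lower, against 33.5%. Srebf1 ran from 10951 to 20403 with a median of 15239 in astrocytes and its GFP- levels were 3748, 3918 and 4860. The groups did not overlap and the means differed 3.73-fold (limma p = 1.14e-06, adjusted p = 3.47e-05, exact permutation p = 0.0167). Srebf2 ran from 576 to 1226 with a median of 842 in astrocytes, and its GFP- levels were 490.0, 501 and 560.4. Its log2 difference was 0.65 ± 0.27 (SE), with limma p = 0.0353, adjusted p = 0.0893, exact permutation p = 0.0167. Insig1, itself a target of SREBP, ran from 1720 to 6200 with a median of 2832 in astrocytes and overlapped the GFP- cells, whose levels were 1469, 1807 and 2261. It differed by 0.82 ± 0.36 (SE) on the log2 scale (limma p = 0.0446, adjusted p = 0.106, exact permutation p = 0.05). The remaining 4 regulators did not pass, with 95% intervals from -0.42 to 1.01 for Scap, -0.53 to 0.54 for Nr1h2, -0.66 to 0.52 for Insig2 and -1.58 to 0.82 for Nr1h3.

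All 6 genes of transport, storage and removal passed. Of these, 4 were higher, against 9.25% of all genes tested, and 2 were lower, against 33.5%. Cyp46a1, the 24-hydroxylase that turns cholesterol into 24S-hydroxycholesterol and is best known from neurons, had the largest difference of the 31. It ran from 3019 to 5578 with a median of 4442 in astrocytes, and its GFP- levels were 268, 446 and 811. The means differed 8.65-fold (log2 difference 3.24 ± 0.30 (SE), limma p = 4.35e-07, adjusted p = 1.82e-05, exact permutation p = 0.0167). The summed level of 8 neuronal markers in the same samples was 439 to 783 in astrocytes and 2500 to 4211 in GFP- cells. The GFP- cells are a mixture of cell types, so the Cyp46a1 difference does not compare astrocytes with neurons. Soat1, which esterifies cholesterol for storage, ran from 497 to 6049 with a median of 3173 in astrocytes, and its GFP- levels were 524, 767 and 929. WT-GFP sample 2 was below all 3 GFP- samples, and the log2 difference was 1.89 ± 0.61 (SE) (limma p = 0.0105, adjusted p = 0.0368, exact permutation p = 0.0667). Npc2 differed by 1.07 ± 0.19 (SE) and Npc1 by 0.86 ± 0.22 (SE) on the log2 scale, the last pair being the carriers that take cholesterol out of the lysosome.

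Stard4, a cytosolic sterol carrier, and Osbp, which moves sterol at contact sites between the endoplasmic reticulum and the Golgi, were lower in astrocytes. Stard4 ran from 0 to 105 with a median of 60.9 in astrocytes, and its GFP- levels were 283, 329.7 and 464. Every astrocyte sample was below every GFP- sample, with a log2 difference of -3.21 ± 1.30 (SE) (limma p = 0.0309, adjusted p = 0.0809, exact permutation p = 0.0167). WT-GFP sample 3 had no Stard4 read, and without that sample the difference was -2.34 and kept its call. The group means were 61.3 ± 34.0 (SD, n = 7) and 359 ± 93.9 (SD, n = 3), a ratio of 0.171. Osbp was at 348 ± 240.0 (SD, n = 7) in astrocytes and 816 ± 106 (SD, n = 3) in GFP- cells, with overlapping groups and a log2 difference of -1.61 ± 0.69 (SE). Neither passed at an adjusted p under 0.05. Osbp was no longer called with edgeR or DESeq2.

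Within WT-GFP astrocytes, levels per kilobase of merged exons, which stand in for the unlisted length of the counted regions, spanned from Stard4 (11.0 ± 6.09, SD) to Srebf1 (2768 ± 592). The next in the order were Msmo1 (2472 ± 694), Sqle (2246 ± 573) and Fdft1 (1944 ± 444), and each of these lay within the SD of its neighbour. Srebf2 was at 117 ± 31.9 on this scale. The enzymes also varied between samples of the same group. Of the 18 enzymes, 16 were above their group's median in WT-GFP sample 1 and 16 below it in WT-GFP sample 4, while 17 were below it in APP-GFP sample 2 and 15 in APP-SOCS3 sample 1. These samples detected 19198, 25514, 16471 and 24152 genes.

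**Figure D3:**
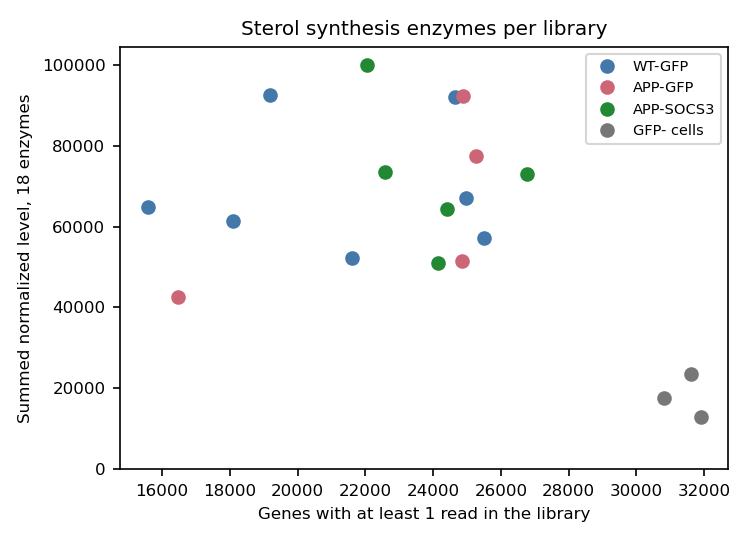
Summed normalized level of the 18 synthesis enzymes in each library against the number of genes with at least 1 read. The GFP- libraries lie at 12882 to 23402 and the libraries of the astrocyte groups between 42494 and 100073.

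Lists of other sterol genes were compared between the same fractions, where 9.25% of all genes tested were higher and 33.5% lower. Of 10 fatty acid targets of SREBP, 7 were higher and none lower, the 5 of smallest p being Fads2 (2.86 ± 0.22 (SE)) and Fads1 (2.00 ± 0.23 (SE)), the fatty acid desaturases, with Acss2 (2.28), Scd1 (2.31) and Fasn (1.49). Of 13 further genes of synthesis and SREBP processing, 3 were higher, among them Acat1, the mitochondrial thiolase (0.85). Of the same 13, 1 was lower, Mbtps1, a protease that cuts SREBP (-1.33), which did not pass at an adjusted p under 0.05. Of 19 tested genes of uptake, export and oxysterols, 4 were higher and 6 lower, against 9.25% of all genes tested higher and 33.5% lower. Apoe, the main lipid carrier of astrocytes, differed 11.8-fold and Cyp7b1, an oxysterol hydroxylase, 6.56-fold. Ch25h, which makes 25-hydroxycholesterol, was at 6.89 ± 8.98 (SD, n = 7) in astrocytes and 692 ± 247 (SD, n = 3) in GFP- cells, and Abcg1, a cholesterol exporter, at 6.54 ± 10.7 (SD, n = 7) and 497 ± 145 (SD, n = 3). Both Ch25h and Abcg1 met the minimum mean of 10 only through the GFP- cells. Scarb1, a lipoprotein receptor, was also lower in astrocytes (-2.87 ± 0.35 (SE)).

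Several calls near the threshold were lost when a single sample was left out. On the log2 scale, with the differences then found, the call was lost for Hmgcs1 without GFP- sample 2 or 3 (0.94 to 1.11) and for Soat1 without GFP- sample 3 (1.66). It was lost for Idi1 without WT-GFP sample 1, 4, 5 or 7 or GFP- sample 2 or 3 (0.85 to 1.19) and for Hsd17b7 without WT-GFP sample 1, 5 or 7 or GFP- sample 1, 2 or 3 (1.13 to 1.43). Among the regulators it was lost for Insig1 without WT-GFP sample 1, 2, 5 or 7 or GFP- sample 1, 2 or 3 (0.66 to 0.97) and for Srebf2 without WT-GFP sample 1, 4, 5 or 7 or GFP- sample 1 or 2 (0.56 to 0.65). Of the lower calls, those lost were Stard4 without GFP- sample 1, 2 or 3 (-3.37 to -3.01) and Osbp without WT-GFP sample 1, 2 or 4 or GFP- sample 1, 2 or 3 (-1.72 to -1.48). With library totals made equal, Hsd17b7, Idi1, Insig1 and Srebf2 were no longer called. The other members called here kept their call when any single sample was left out.

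APP-GFP and WT-GFP astrocytes were compared to ask what changes in reactive astrocytes of the disease model. No member passed the test, against 1.66% of 22969 genes higher and 0.57% lower (74.5% of called genes higher, 38.7% with DESeq2). No member reached an unadjusted limma p under 0.05. edgeR called none and DESeq2 called 1, Stard4. The members' median log2 difference was 0.00, against 0.09 for all genes. The median for the 18 enzymes was -0.10, with differences from -0.39 (Sc5d) to 0.14 (Cyp51). The summed level of the enzymes was 42494 to 92249 in APP-GFP and 52343 to 92663 in WT-GFP astrocytes, so the groups overlapped.

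Stard4 had the smallest p of the 31. Its APP-GFP levels were 137, 189.7, 206 and 266, and in WT-GFP astrocytes it ran from 0 to 105 with a median of 60.9. Every APP-GFP sample was above every WT-GFP sample, which held for 0.231% of all genes in this direction and for 0.0827% in the other, and no other member's groups were apart. The means were 199.6 ± 53.3 (SD, n = 4) and 61.3 ± 34.0 (SD, n = 7). The log2 difference was 2.36 ± 1.13 (SE), with a 95% interval from -0.09 to 4.81 (limma p = 0.0578, adjusted p = 0.999, exact permutation p = 0.00606), and the permutation p is the smallest that 4 against 7 samples can give. WT-GFP sample 3, with the fewest genes detected, had no Stard4 read. Without that sample the difference was 1.48 and passed the test. Stard4 also passed without WT-GFP sample 5 (2.60) and without the 3 libraries of fewest genes (1.40), and in no setting tried was its adjusted p under 0.05. GFP- cells, at 359 ± 93.9 (SD, n = 3), had higher Stard4 levels than any astrocyte sample, and microglial markers summed to 15607 to 82704 in APP-GFP and 10367 to 38640 in WT-GFP samples. Their part in the Stard4 values was not tested.

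Acat2 levels were 1637, 2025, 2392 and 2583 in APP-GFP astrocytes, and in WT-GFP astrocytes Acat2 ran from 2140 to 3111 with a median of 2701. The groups overlapped, and the log2 difference was -0.34 ± 0.18 (SE) (limma p = 0.0788, adjusted p = 0.999, exact permutation p = 0.0485). Sc5d levels were 1254, 1345, 1924 and 2649 in APP-GFP astrocytes, with overlap and a log2 difference of -0.39 ± 0.24 (SE) (limma p = 0.132, adjusted p = 0.999, exact permutation p = 0.145). Without APP-GFP sample 4 Sc5d was called lower (-0.60). Sqle levels were 8180, 8686, 12679 and 16950 and Srebf2 levels were 394, 723, 1037 and 1599, both within or around the WT-GFP range, with 95% intervals of the log2 difference from -0.63 to 0.39 and -0.74 to 0.80.

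Srebf1 differed by 0.27 (95% interval -0.11 to 0.64), Insig1 by 0.35 (-0.37 to 1.08) and Cyp46a1 by -0.13 (-0.52 to 0.27) on the log2 scale. The Insig1 levels in APP-GFP astrocytes were 2495, 3958, 5100 and 5581, those of Srebf1 were 15009, 17789, 20387 and 20911 and those of Cyp46a1 were 3539, 3614, 3728 and 5191. All 3 overlapped the WT-GFP samples. In the other sterol lists 1 gene, Ch25h, passed the test as higher (limma p = 0.0112, adjusted p = 0.999, exact permutation p = 0.00606). Its levels were 21.7, 24.4, 51.4 and 184 in APP-GFP astrocytes, and in WT-GFP astrocytes Ch25h ran from 0 to 21.6 with a median of 3.04, with 3 of 7 samples at 0. The means were 70.4 ± 76.9 (SD, n = 4) and 6.89 ± 8.98 (SD, n = 7), and Ch25h met the minimum mean of 10 only through APP-GFP, whose mean was 32.5 without its highest sample. The nearest samples of the groups stood at 21.7 and 21.6. Of the 10 microglial markers, 1 was called higher, against 1.66% of all genes tested. All 10 had a log2 difference above 0, with a median of 0.82. Among all 22969 genes tested, 13124 were above 0. The part of the microglial markers in the Ch25h values was not tested either.

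APP-SOCS3 and APP-GFP astrocytes were compared to ask whether SOCS3, an inhibitor of the JAK-STAT3 pathway, altered the sterol genes. Again no member passed, against 2.33% of 22844 genes higher and 3.37% lower (40.9% of called genes higher, 30.1% with edgeR), and none had an unadjusted limma p under 0.05. edgeR and DESeq2 called none either. Of the 31 members, 26 had a log2 difference above 0, against 12791 of all 22844 genes. The median was 0.16, against 0.08 for all genes. Of the enzymes 17 of 18 were above 0, the exception being Ebp (-0.24), with a largest difference of 0.56 for Dhcr7. In APP-GFP sample 2, which detected 16471 genes, 17 of the 18 enzymes were below their group's median. Dhcr7 was at 661 in that sample and at 1978, 2962 and 3516 in the others of APP-GFP. The part of APP-GFP sample 2 in these signs was not tested. No member's groups were apart, against 0.924% of all genes higher and 1.09% lower. The summed level of the enzymes in APP-SOCS3 astrocytes was 50915 to 100073.

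Stard4 levels in APP-SOCS3 astrocytes were 1.76, 59.6, 91.2, 103 and 219. 4 of these were below all 4 APP-GFP samples and the remaining sample was inside their range. The log2 difference was -1.93 ± 1.07 (SE), with a 95% interval from -4.28 to 0.42 (limma p = 0.0976, adjusted p = 0.816, exact permutation p = 0.0635, where 0.0159 is the smallest possible p). Without APP-SOCS3 sample 2, the highest of its group, it was called lower (-2.46), and without sample 5, the lowest, the difference was -0.88 and did not pass. Mvk levels were 719, 792, 896, 921 and 1025 in APP-SOCS3 and were 250.5, 619, 871 and 893 in APP-GFP astrocytes. The 1 low APP-GFP sample was the library that detected 16471 genes, and the difference was 0.55 ± 0.35 (SE) (limma p = 0.139, exact permutation p = 0.175). Npc2 levels were 7185, 8067, 9174, 9802 and 10484 in APP-SOCS3 and were 9300, 9767, 9941 and 13167 in APP-GFP astrocytes, with overlap and a difference of -0.24 ± 0.15 (SE) (limma p = 0.144, exact permutation p = 0.19).

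Sqle levels were 7604, 11520, 12594, 13040 and 20508 in APP-SOCS3 astrocytes, and those of Srebf2 were 664, 793, 925, 1030 and 1250. The 95% interval of the log2 difference ran from -0.46 to 0.78 for Sqle, -0.66 to 0.93 for Srebf2, -0.24 to 0.42 for Srebf1 and -0.09 to 0.53 for Cyp46a1. Cyp46a1 levels were 4335, 4400, 4644, 4729 and 5023. Insig1 levels were 1227, 5783, 5866, 6674 and 9267, the lowest being sample 1, in which 15 of the 18 enzymes were also below their group's median. Without that sample Insig1 was called higher than in APP-GFP astrocytes (0.72).

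Of the other sterol genes, Scarb1 was lower in APP-SOCS3 than in APP-GFP astrocytes, at 306 ± 77.2 (SD, n = 5) against 899 ± 522 (SD, n = 4) (limma p = 0.0033, adjusted p = 0.576, exact permutation p = 0.0159). All 10 endothelial and all 10 microglial markers were called lower as well, against 3.37% of all genes tested, and none of them at an adjusted p under 0.05. The endothelial markers summed to 1114 to 6159 in APP-SOCS3 and 5559 to 31006 in APP-GFP astrocytes, and the microglial markers to 8092 to 14734 and 15607 to 82704. Scarb1 stood at 3888 ± 364 (SD, n = 3) in GFP- cells, where these markers are highest, and their part in its difference and in that of Stard4 was not tested. Cyp7b1 had groups that did not overlap (4690 ± 675 (SD, n = 5) against 3234 ± 398 (SD, n = 4)) and a log2 difference of 0.53 ± 0.15 (SE), under the fold threshold (limma p = 0.00361, adjusted p = 0.577, exact permutation p = 0.0159). The groups of Cyp27a1, a sterol 27-hydroxylase, did not overlap in the other direction (54.4 ± 31.2 (SD, n = 5) against 164 ± 33.0 (SD, n = 4)), with a log2 difference of -2.47 ± 1.20 (SE) that did not pass (limma p = 0.0637, adjusted p = 0.814, exact permutation p = 0.0159). No fatty acid target passed.

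APP-SOCS3 astrocytes were last set against WT-GFP astrocytes, which also served as controls for APP-GFP. No member passed, against 3.19% of 22958 genes higher and 2.02% lower (61.2% of called genes higher, 29.2% with DESeq2), and edgeR and DESeq2 called none. No member's groups were apart (0.287% of all genes higher and 0.279% lower). The members' median log2 difference was 0.14, against 0.19 for all genes. Of the 31 members, 2 had an unadjusted limma p under 0.05 with a fold below 1.5. Npc1 levels were 4595, 4652, 4737, 5927 and 7245 in APP-SOCS3 astrocytes, and in WT-GFP astrocytes Npc1 ran from 3280 to 5689 with a median of 3763. The log2 difference was 0.42 ± 0.17 (SE) (limma p = 0.0251, adjusted p = 0.807, exact permutation p = 0.0354). Srebf1 levels were 15872, 17503, 19340, 22529 and 23434 in APP-SOCS3 astrocytes, and the difference was 0.35 ± 0.16 (SE) (limma p = 0.0448, adjusted p = 0.873, exact permutation p = 0.0581). Both genes overlapped between the groups.

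Scap levels were 1742, 1795, 1890, 1946 and 2018 in APP-SOCS3 astrocytes, and in WT-GFP astrocytes Scap ran from 624 to 1921 with a median of 1720. The lowest WT-GFP value was sample 3, and the difference was 0.35 ± 0.25 (SE) (limma p = 0.175, adjusted p = 0.916, exact permutation p = 0.0556). Insig1 differed by 0.59 ± 0.44 (SE) with a 95% interval from -0.36 to 1.54, and by 1.08 without APP-SOCS3 sample 1, which passed the test. Stard4 differed by 0.43, with an interval from -2.32 to 3.18, and by -0.45 without WT-GFP sample 3 and 1.48 without APP-SOCS3 sample 5. The intervals were -0.45 to 0.53 for Sqle, -0.34 to 0.67 for Srebf2 and -0.22 to 0.40 for Cyp46a1. In the other sterol lists Scarb1 was lower (-0.83 ± 0.32 (SE)). Called lower too were 8 of 10 microglial, 8 of 10 endothelial and 4 of 6 mural markers, against 2.02% of all genes tested. None of these markers passed at an adjusted p under 0.05, and their part in the Scarb1 difference was not tested. Soat2, a sterol esterification enzyme, also met the threshold as lower, but passed the minimum mean only through WT-GFP. It was listed at 0 in all 5 APP-SOCS3 samples and in 3 of 7 WT-GFP samples, whose mean was 20.5 ± 28.9 (SD, n = 7) (limma p = 0.0407, adjusted p = 0.873, exact permutation p = 0.141).

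**Figure D4:**
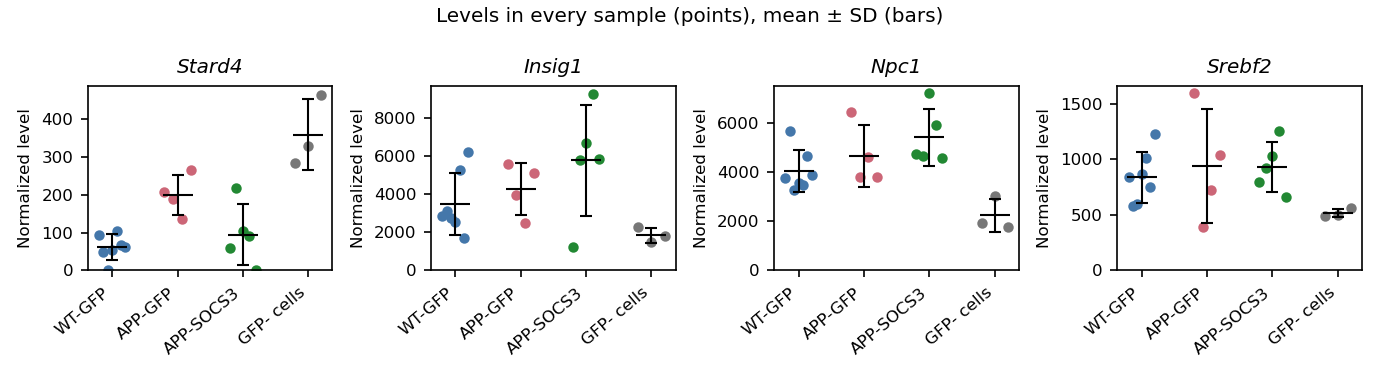
Normalized levels of Stard4, Insig1, Npc1 and Srebf2 in each sample of the 4 groups, with the mean and SD. All APP-GFP samples lie above the WT-GFP samples for Stard4, and the astrocyte groups overlap for the other genes.

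**Figure D5:**
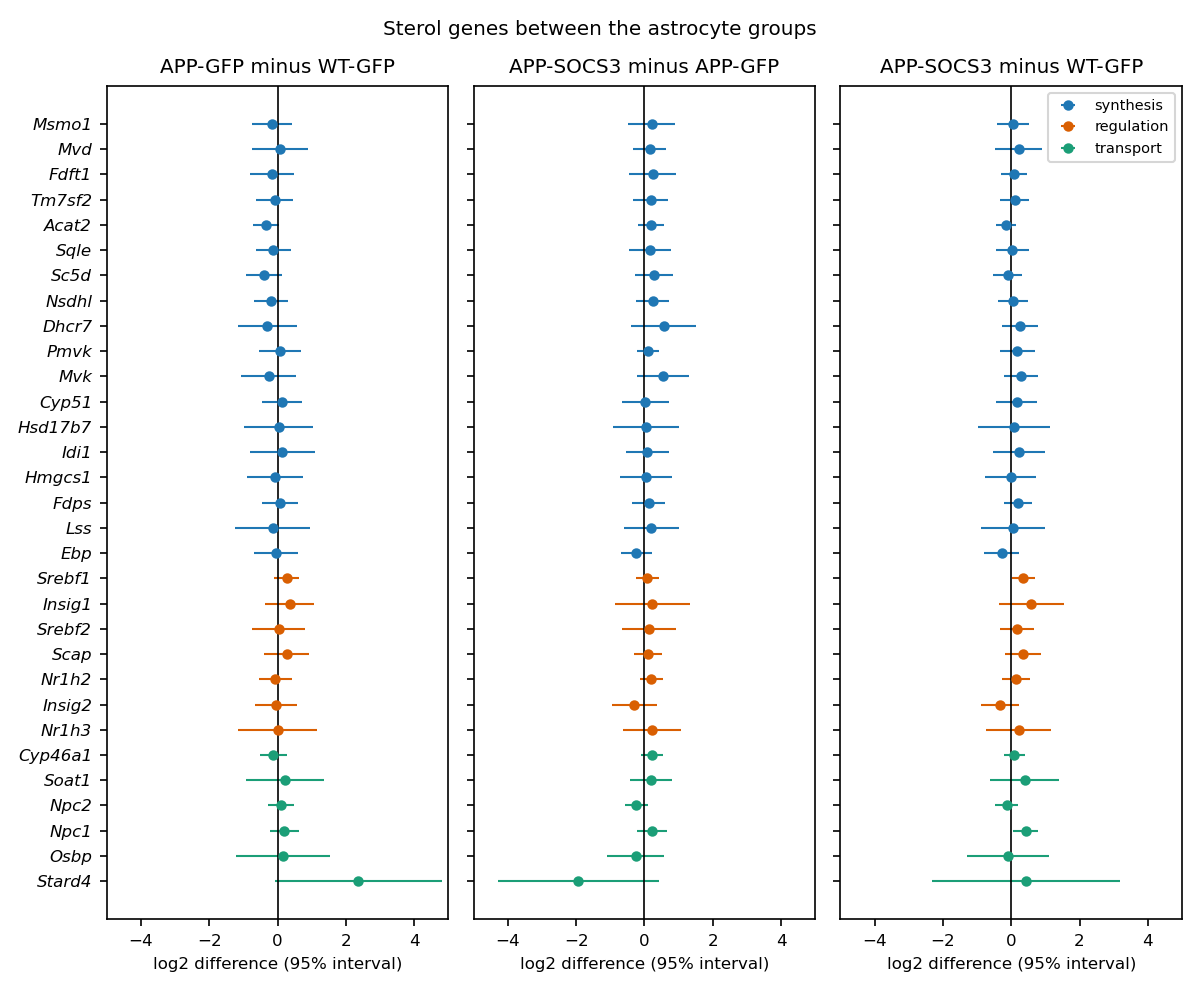
Log2 differences of the 31 genes with 95% intervals for APP-GFP minus WT-GFP, APP-SOCS3 minus APP-GFP and APP-SOCS3 minus WT-GFP astrocytes, coloured by role. All points other than those of Stard4 lie within 0.6 of 0, and the widest intervals are those of Stard4.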

How the data were processed

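RNA of 19 sorted samples was amplified with the SMARTer Ultra Low kit and Nextera XT and sequenced on an Illumina HiSeq. Per the labels, the authors aligned reads with STAR 2.4.0 to mm10, counted them on constitutive regions of FAST DB genes and normalized them with DESeq2. Whether the counting used strand is not given in the sources used here. Hmgcs1, Mvd, Idi1, Fdft1, Lss, Cyp51, Insig2, Srebf1, Scap, Soat1 and Npc1 overlap a gene annotated on the other strand. Fdps, Tm7sf2, Srebf1 and Srebf2 overlap a gene annotated on the same strand, and the row of Srebf1 also names microRNA genes. The deposited signal is the read count divided by a size factor. Whole reads were recovered for 100% of values at a tolerance of 0.001. Libraries of 19331876 to 32621917 reads gave Stard4 0 to 305 reads in an astrocyte sample, so that counting error weighs most on that gene.

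Levels plus a pseudocount of 1 were compared on the log2 scale with limma 3.58.1 (R 4.3.3), keeping genes whose mean reached 10 in a compared group. Log2 differences of low genes move with the pseudocount and with samples at 0, that of Stard4 between the cell fractions from -3.70 with a pseudocount of 0.1 to -2.62 with 10. Calls needed a p up to 0.05 and a fold of 1.5 or more, with Benjamini-Hochberg adjusted p beside it, and single genes were also given exact permutation tests (scipy 1.17.1). edgeR 4.0.16 and DESeq2 1.42.0 on the recovered reads were alternatives, with other pseudocounts, filters, scalings, a replicate block and leaving out samples. The scripts were tested on simulated data. Per comparison the 8 called members of smallest p were described in full, or the 3 of smallest p where fewer than 3 were called, with Sqle, Srebf2, Srebf1, Insig1 and Cyp46a1 always. Other genes are given by ranges and counts, other lists by their called genes, up to 5 a list. The members and lists were chosen with earlier results of these data known. Of 14 genes in the list of further synthesis genes 13 were found, and some of them are not reported here. Settings chosen after seeing the data left out libraries with under 19000 genes detected.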

Additional observations from a re-analysis of the deposited data

Results flagged for a closer look

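Of 93 sets of levels (31 genes in 3 groups of 4 to 7 samples), 6 held a sample whose gap to its nearest neighbour was a large share of the group's range, and about 1 in 20 such sets is expected to do so by chance. Lss was high in APP-GFP sample 4 at 1298, with the others of the group from 438 to 554. Tm7sf2 was low in APP-GFP sample 2 at 454, with the others of the group from 780.3 to 824. Acat2 was high in APP-SOCS3 sample 2 at 3050, with the others of the group from 2188 to 2418. Scap was low in WT-GFP sample 3 at 624, with the others of the group from 1433 to 1921. Npc2 was high in APP-GFP sample 3 at 13167, with the others of the group from 9300 to 9941. Cyp46a1 was high in APP-GFP sample 4 at 5191, with the others of the group from 3539 to 3728. WT-GFP sample 3 and APP-GFP sample 2 detected 15575 and 16471 genes, the lowest of the series.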

How the results depend on the processing

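Between astrocytes and GFP- cells the number of called members was 25 and lay between 18 and 25 under every alternative, leave-one-out included (18 to 25). It was 20 with a replicate block, 24 without the libraries under 19000 genes detected, and with equal upper quartiles all 25 called were higher. No called member changed direction, and of 713 values 64 lost the call, all for Hmgcs1, Hsd17b7, Idi1, Insig1, Npc1, Osbp, Soat1, Srebf2 and Stard4. The median of all genes was -1.31, and moved to -0.37 with edgeR, -1.46 with equal totals, -1.73 with a pseudocount of 0.1 and -1.88 with the replicate block. Between APP-GFP and WT-GFP astrocytes the count was 0 and became 1 with a pseudocount of 10, with DESeq2, with the replicate block and without the libraries under 19000 genes, each time Stard4. The cause was not tested. Leaving out single samples gave 0 to 1 in each comparison of astrocyte groups. Deviations of same-numbered samples correlated at -0.076 to 0.154. The same number was the best match in 2 of 3 pairs of astrocytes and GFP- cells and 3 of 4 of APP-SOCS3 and APP-GFP. It was so in 1 of 4 pairs of APP-GFP and WT-GFP and 0 of 5 of APP-SOCS3 and WT-GFP. The labels do not say which samples share a mouse, and the numbers were not read as pairs. Differences that passed no test changed sign in at least 1 setting for 24 members in APP-GFP against WT-GFP, 17 in APP-SOCS3 against APP-GFP and 15 in APP-SOCS3 against WT-GFP astrocytes.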
